A study of Homo sapiens with 104 samples.

Results

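Untreated MT1 cells were compared with untreated TK6 cells across all genes that the array annotation names by a single symbol. TK6 is an established human lymphoblastoid (B-cell derived) line with working mismatch repair. MT1 was derived from TK6 by mutagenesis and by selecting cells that survive alkylating agents, so it is the descendant of 1 resistant clone, and it is known to have lost mismatch repair through mutation of MSH6. The comparison rests on 4 of the 104 samples of the series, which were chosen by their labels alone: 2 arrays of MT1 and 2 of TK6, each from cells in mid log phase that received no agent. Both lines are known not to make the repair protein MGMT. A further 24 numbered lymphoblastoid lines, also untreated and with 2 arrays each, served to estimate the spread between duplicates and gave the range of levels against which both lines were set; no array of cells exposed to MNNG was used. Because MT1 is 1 selected derivative, differences tied to the loss of mismatch repair cannot be told apart from others that arose in its lineage.

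Mismatch repair recognises mispaired bases left by DNA replication and removes the stretch of new strand that holds them. MSH6 belongs to the recognition dimer, and the exonuclease EXO1, the sliding clamp PCNA, the clamp loader RFC and the single-strand binding protein RPA serve excision and resynthesis. Cells without the pathway no longer respond to methylated guanine paired with thymine, and so they survive methylating agents, while errors accumulate in their genome as they divide.

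Transcript levels were given as log2 of the PLIER intensity plus 16, quantile normalised, a scale that ends at 5. The 4 arrays had median deposited intensities of 21.3 to 37.8. In the MT1 duplicates 2.37% and 41.6% of probe sets lay below an intensity of 17, close to the floor of 16, against 26.8% and 28.9% in TK6, so dim genes were measured less evenly in MT1. Across genes the duplicates correlated at 0.980 in MT1 and 0.982 in TK6, between the 0.960 and 0.997 that bounded the panel's duplicates, and the arrays of MT1 correlated with those of TK6 at 0.943 to 0.951. As line means, MT1 and TK6 correlated at 0.956 with each other, and at 0.847 to 0.883 and 0.849 to 0.888 with the panel lines, which correlated among themselves at 0.915 to 0.982. Both lines therefore stood apart from the panel and lay closer to each other than to any panel line. Nothing in the labels says that duplicates came from separate cultures, so p-values here measure the spread between arrays, which may be technical.

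The lines differed at many genes, mostly by modest amounts. Of 13818 genes tested, 3228 (23.4%) passed limma's moderated test at a Benjamini-Hochberg adjusted p below 0.05, and such genes are termed called below. Called genes were higher in MT1 in 1711 cases (12.4%) and lower in 1517 (11.0%). With a difference of at least 1.5-fold as well, 690 (4.99%) were higher and 863 (6.25%) lower, and at 2-fold or more the balance tipped further, with 143 (1.03%) higher and 392 (2.84%) lower. The median difference over all genes was 0.01 log2 units and the median size was 0.193, inside the 0.109 to 0.284 found for pairs of panel lines. The count of calls was 1437 on values without normalisation, 1915 with arrays centred on their medians and 1363 when the 4 arrays were fitted alone.

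**Figure D1:**
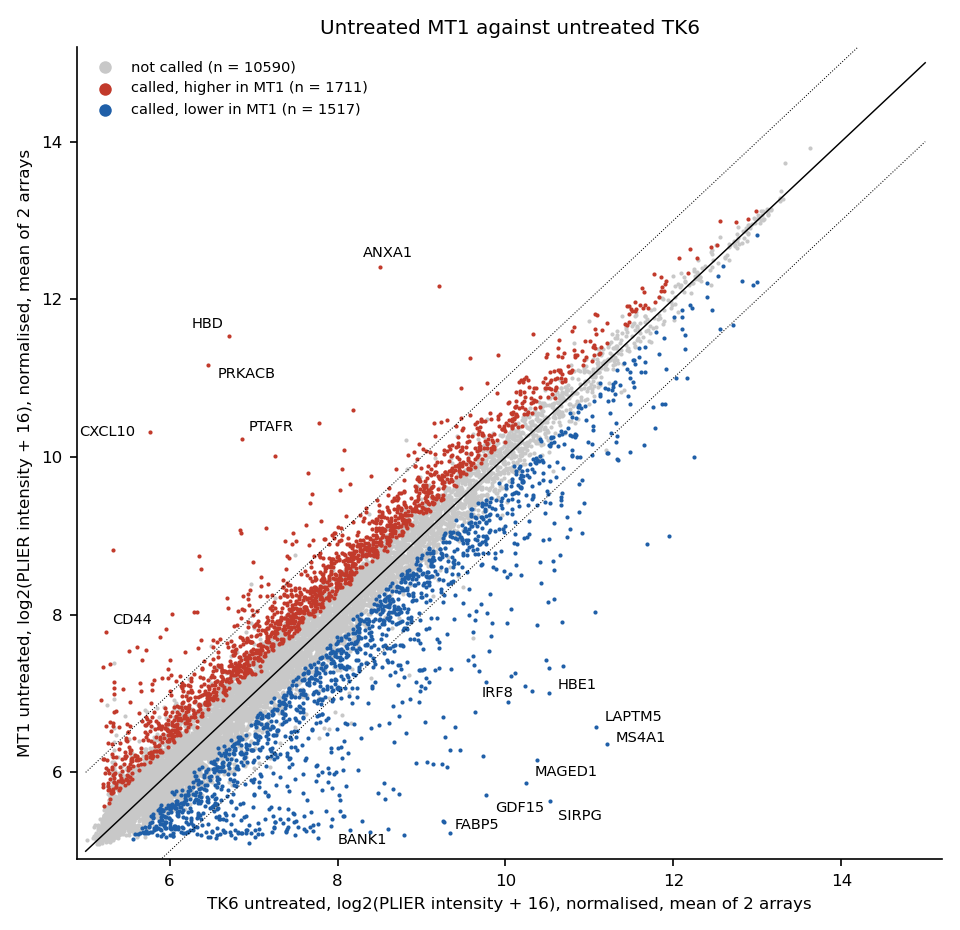
Level of each of the 13818 tested genes in untreated TK6 (x axis) and untreated MT1 (y axis), as log2 of the normalised PLIER intensity plus 16, mean of 2 arrays. Red points are the 1711 genes called higher and blue points the 1517 called lower in MT1; the solid line marks equal levels and dotted lines a 2-fold difference, beyond which more called genes lie below (392) than above (143).

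Each line was set against the range of the 24 panel lines. Of the 3228 called genes, MT1 alone lay outside the panel's range at 910 (28.2%), TK6 alone at 819 (25.4%), both at 626 (19.4%) and neither at 873 (27.0%). Over all genes tested the shares were 13.5%, 13.0%, 20.8% and 52.8%. Of all 13818 genes, MT1 lay above every panel line at 2461 and below every one at 2269. For TK6 these counts were 2273 and 2386, and they are the background for the counts of single lists below. The called differences were thus spread over all of these classes. Where both lines or neither lay outside its range, the panel does not single out the derivative or the parental line.

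Differences are given below as MT1 minus TK6 in log2 units, ± the standard error of the moderated test, with the adjusted p. Where 1 line had a level under 6, near the end of the scale, the difference is a lower bound and its error does not cover that limit. A gene is read from 1 probe set; with the mean of all its probe sets, dim ones included, the difference was over 1.5 times smaller for 44 of the 145 called genes with a value in the text (GDF15, for example, at -1.41, and PLCG2 at -0.62), and 9 lost the call. With a pseudocount of 64 it was over 1.5 times smaller for 14.

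Among the genes most in excess in MT1 were a globin, a kinase subunit, a chemokine and a calcium-binding protein. HBD, the delta chain of adult haemoglobin, had levels of 11.59 and 11.48 in MT1 against 6.83 and 6.59 in TK6 (4.82 ± 0.10, adjusted p = 2.38e-26). PRKACB, a catalytic subunit of protein kinase A, had levels of 11.26 and 11.06 in MT1 against 6.48 and 6.42 in TK6 (4.71 ± 0.11, adjusted p = 4.63e-25). Both genes were bright in the derivative and dim in the parent. A lack of overlap between the arrays was required of the largest differences, and 52.7% of all genes had it. The panel lines ranged from 5.29 to 5.82 for HBD and from 5.34 to 9.23 for PRKACB, so MT1 lay above all of them for both genes. The 2 other probe sets of PRKACB also differed, by 4.12 and 4.15. CXCL10, a chemokine that draws activated T cells, had levels of 10.35 and 10.29 in MT1 against 5.80 and 5.73 in TK6 (4.55 ± 0.11, adjusted p = 2.18e-24), and ANXA1, a phospholipid-binding protein that dampens inflammation, had levels of 12.28 and 12.53 in MT1 against 8.40 and 8.62 in TK6 (3.90 ± 0.21, adjusted p = 1.19e-15). CXCL10 was near the end of the scale in TK6 and ranged from 5.23 to 11.83 in the panel, whereas MT1 exceeded every panel line for ANXA1.

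Several receptors and enzymes of immune cells belonged to the same group of 15 largest excesses. They included the platelet-activating factor receptor PTAFR (3.36 ± 0.13) and the C-type lectin CLEC2B (2.65 ± 0.10). The oxysterol receptor GPR183, which guides B cells in lymphoid tissue, was another (2.40 ± 0.14). Entry to the group required both MT1 arrays to lie above both TK6 arrays. CD44, the hyaluronan receptor of most blood cells, had levels of 7.63 and 7.93 in MT1 against 5.25 and 5.23 in TK6 (2.54 ± 0.080, adjusted p = 1.32e-21). All 7 probe sets of CD44 with a mean level over 6 in at least 1 line were higher in MT1, by 1.46 to 2.54, yet MT1 remained below the lowest panel line (9.40). The tryptophan-degrading enzyme KYNU (2.20 ± 0.068), the inflammatory caspase CASP1 (2.18 ± 0.25), the cochaperone DNAJC12 (2.39 ± 0.095) and the HLA loading factor HLA-DMB (2.24 ± 0.084) were higher too. For the phosphatase PTPN13 the TK6 duplicates disagreed, at 7.53 and 10.90 against 12.30 and 12.03 in MT1 (2.95 ± 0.47, adjusted p = 1.07e-05), and the call was lost when the 4 arrays were fitted alone. Its difference was 1.26 without TK6 replicate 1 and 4.64 without TK6 replicate 2; its second probe set gave 8.50 and 8.76 against 10.62 and 10.66. The noncoding RNAs LINC00158 (2.76 ± 0.19) and LINC02097 (3.49 ± 1.08) completed the group, and the call of LINC02097 was lost whenever 1 of the 4 arrays was left out (adjusted p = 0.0163 with all of them, 0.0686 to 0.0744 without 1).

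The 15 largest deficits in MT1 included several genes known from blood cells. MS4A1, which encodes the B-cell surface protein CD20, had levels of 6.41 and 6.32 in MT1 against 11.29 and 11.14 in TK6 (-4.85 ± 0.060, adjusted p = 1.5e-32). The lysosomal membrane gene LAPTM5, active throughout blood cells, had levels of 6.44 and 6.70 in MT1 against 10.92 and 11.24 in TK6 (-4.51 ± 0.10, adjusted p = 1.29e-25). TK6 itself lay below the panel for both genes, which spanned 11.56 to 12.74 and 12.15 to 12.75, and MT1 lay far lower still. All 4 probe sets of MS4A1 were lower in MT1, by -2.66 to -4.85. SIRPG, a surface partner of CD47, had levels of 5.69 and 5.57 in MT1 against 10.55 and 10.51 in TK6 (-4.90 ± 0.12, adjusted p = 1.53e-24), and KLHL6, a ubiquitin-ligase adaptor of germinal-centre B cells, had levels of 5.48 and 5.28 in MT1 against 9.31 and 9.20 in TK6 (-3.88 ± 0.15, adjusted p = 3.83e-19). For these 2 genes, in contrast, TK6 was above the panel's highest line and MT1 was within its range.

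Further genes among the 15 largest deficits were the integrin activator FERMT3 (-3.32 ± 0.14), the lipid-binding protein FABP5 (-3.91 ± 0.21), the tubulin TUBA1A (-3.52 ± 0.15), PLAC8 (-3.34 ± 0.060) and MAGED1 (-4.38 ± 0.12). MAGED1 had levels of 6.14 and 5.60 in MT1 against 10.34 and 10.15 in TK6, where the panel spanned 9.23 to 10.45, so MT1 alone was outside. GDF15, a secreted protein made by stressed cells, had levels of 5.67 and 5.76 in MT1 against 9.63 and 9.91 in TK6 (-4.06 ± 0.14, adjusted p = 5.61e-21), and NRN1, a neuronal growth protein, had levels of 5.26 and 5.19 in MT1 against 9.31 and 9.36 in TK6 (-4.11 ± 0.14, adjusted p = 5.61e-21). TK6 exceeded the panel's highest line for GDF15 (7.37) and NRN1 (8.60), and MT1 was near the end of the scale for both. MYMX, a small protein of fusing muscle cells, had unequal duplicates in both lines, at 6.83 and 5.48 in MT1 against 11.08 and 9.67 in TK6 (-4.22 ± 0.40, adjusted p = 5.54e-10).

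The beta-globin cluster differed in opposite directions within itself. The embryonic chain HBE1 had levels of 7.15 and 6.86 in MT1 against 10.54 and 10.49 in TK6 (-3.51 ± 0.18, adjusted p = 2.46e-16), whereas the adult chain HBD was the gene with the largest excess. Panel lines reached no more than 5.83 for HBE1 and 5.82 for HBD. HBB, the chain nearest to HBD in sequence, was not called (0.52 ± 0.46, adjusted p = 0.513), but its probe sets disagreed: 1 of 4 read 11.04 and 10.75 in MT1 against 5.67 and 5.69 in TK6, a difference of 5.21, and the 3 others differed by 0.01 to 0.52. The mean of the 4 was called (1.52, adjusted p = 1.94e-09). How far the probes of HBB and HBD tell these 2 similar transcripts apart was not tested. Of the 6 tested erythroid and megakaryocyte markers 1 was called, HBD itself (16.7%, against 23.4% of all genes). The red-cell regulator GATA1 and the haem enzyme ALAS2 had mean levels under 6 in both lines.

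Genes that define B cells were lower in MT1 in part. Of 24 tested surface genes, 11 were lower and 4 higher (median difference -0.11). Of 22 genes of B-cell receptor signalling, 10 were lower and 2 higher (median -0.36). Of 23 regulators of B-cell and plasma-cell transcription, 10 were lower and 4 higher (median -0.38). The called shares were 62.5%, 54.5% and 60.9%, against 23.4% of all genes. MT1 lay below the whole panel at 11, 14 and 14 genes of the 3 lists, and TK6 at 13, 10 and 11, so a good part of the distance from other lymphoblastoid lines was present in the parent already. When the 4 arrays were fitted alone, 7 surface genes were lower.

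On the surface, CD20 was joined by the IgE receptor FCER2 (CD23), the tetraspanin CD37, the BAFF-family receptor TNFRSF13B and the inhibitory lectin CD22. FCER2 had levels of 7.35 and 7.51 in MT1 against 10.31 and 10.65 in TK6 (-3.05 ± 0.21, adjusted p = 4.46e-13), and CD22 had levels of 7.67 and 7.89 in MT1 against 9.43 and 9.81 in TK6 (-1.84 ± 0.15, adjusted p = 4.22e-11). For both genes TK6 was inside the panel's range and MT1 below it. Values for CD37 were 7.22 and 7.49 in MT1 against 9.37 and 9.88 in TK6 (-2.27 ± 0.30, adjusted p = 4.67e-07) and for TNFRSF13B 5.30 and 5.67 in MT1 against 7.34 and 7.59 in TK6 (-1.98 ± 0.19, adjusted p = 1.07e-09), where TK6 was also below the panel. The 2 signalling chains of the B-cell receptor parted: CD79B was lower (-1.25 ± 0.14, adjusted p = 2.33e-08), while CD79A read 10.23 and 10.50 in MT1 against 10.13 and 10.46 in TK6 and was not called (0.07 ± 0.18, adjusted p = 0.873). The 4 higher surface genes were CD80, CD86, CD40 and CD200. CD80, which costimulates T cells, had levels of 8.25 and 7.77 in MT1 against 6.01 and 6.04 in TK6 (1.98 ± 0.14, adjusted p = 1.02e-12) and CD86 had levels of 9.04 and 8.98 in MT1 against 7.98 and 7.88 in TK6 (1.08 ± 0.094, adjusted p = 9.59e-11); MT1 was within the panel's range for CD80, where TK6 was below it, and above the range for CD86. CD40 (0.43 ± 0.10) and CD200 (0.35 ± 0.098) differed by less, and CD200 was dim in both lines. The calls of CD40 and CD200 were lost with arrays centred on their medians and with the 4 arrays alone, and that of CD200 also without normalisation, with a pseudocount of 64, with the mean of its probe sets, and without MT1 replicate 1 (adjusted p = 0.108) or TK6 replicate 1 (adjusted p = 0.0549).

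Below the receptor, the adaptor BANK1 had levels of 5.15 and 5.25 in MT1 against 8.89 and 8.70 in TK6 (-3.60 ± 0.14, adjusted p = 1.5e-19) and the phospholipase PLCG2 had levels of 8.09 and 8.05 in MT1 against 10.15 and 9.98 in TK6 (-1.99 ± 0.088, adjusted p = 5.99e-18). The adaptors LAT2 (-1.85 ± 0.065) and BLNK (-1.48 ± 0.097), the inhibitory Fc receptor FCGR2B (-1.69 ± 0.14) and the kinase FYN (-1.55 ± 0.13) were also at least 2-fold lower. The proximal kinase SYK was higher (0.74 ± 0.14, adjusted p = 9.95e-05). In LAT2 a second, dimmer probe set differed by 0.01 only. Among transcription factors, IRF8, which directs B-cell and myeloid development, had levels of 7.10 and 6.97 in MT1 against 10.51 and 10.11 in TK6 (-3.28 ± 0.19, adjusted p = 6.25e-15). FLI1 (-1.20 ± 0.18), the octamer factor POU2F2 (-1.15 ± 0.12), its coactivator POU2AF1 (-1.13 ± 0.065) and ETS1 (-0.97 ± 0.11) were lower, and the progenitor factor MYB (0.72 ± 0.13) and the Ikaros relative IKZF3 (0.61 ± 0.12) were higher. PAX5, which holds B-cell identity, read 10.08 and 9.80 in MT1 against 9.90 and 9.61 in TK6 and was not called (0.19 ± 0.14, adjusted p = 0.423), and the same held for IRF4 (-0.01 ± 0.21, adjusted p = 0.982). Of 10 tested immunoglobulin and recombination genes 3 were lower, the heavy chains IGHD (-1.57 ± 0.14) and IGHM (-0.95 ± 0.26) and the chaperone MZB1 (-0.88 ± 0.15), and the light chain IGKC was higher (0.40 ± 0.11). The called share of that list was 40%, against 23.4% of all genes. The calls of IGHM and IGKC were lost without MT1 replicate 1 (adjusted p = 0.102 and 0.1) or TK6 replicate 2 (adjusted p = 0.131 and 0.0899), and with those of IKZF3 when arrays were centred on their medians or the 4 arrays fitted alone. IGKC and IKZF3 were not called with the mean of their probe sets either, nor IGKC without normalisation.

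**Figure D2:**
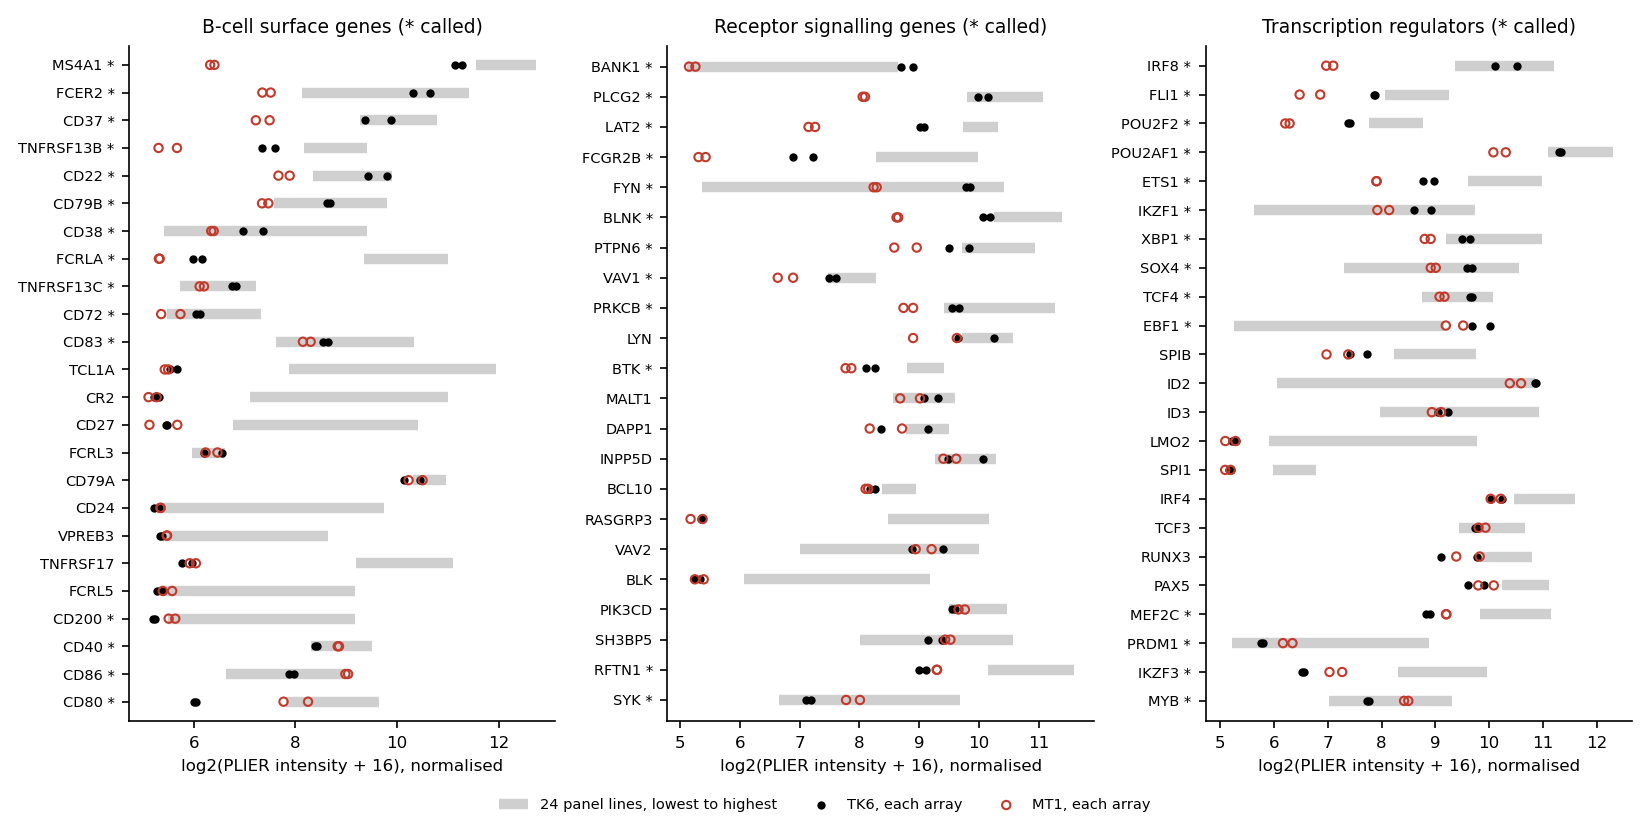
Levels of the tested B-cell surface genes, receptor signalling genes and transcription regulators in each array, as log2 of the normalised PLIER intensity plus 16, ordered by the difference between the lines. Open red circles are the 2 MT1 arrays, black points the 2 TK6 arrays and grey bars the range of the 24 panel lines; stars mark called genes, which were lower in MT1 for 11 of 24, 10 of 22 and 10 of 23 genes.

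Markers of the B lineage and of other cell types were read as a check of both lines. The tested B-cell surface genes had mean levels of 6.63 and 6.70 in MT1 against 7.22 and 7.29 in TK6, and 8 of 24 were under 6 in both lines. Under 6 in both lines were 12 of 17 T and NK cell markers, 7 of 10 myeloid markers, 3 of 6 erythroid and megakaryocyte markers and 4 of 10 fibroblast and epithelial markers. The means over these lists were 5.68 and 5.70 in MT1 against 5.89 and 5.83 in TK6 for T and NK cells, 5.98 and 5.81 against 6.11 and 6.14 for myeloid cells, 7.10 and 6.99 against 6.30 and 6.28 for erythroid cells, and 6.36 and 6.24 against 6.54 and 6.47 for fibroblasts and epithelia. Called members were 3 T and NK genes, 1 myeloid gene and 1 epithelial gene, each lower in MT1, and HBD, higher. Called shares were 17.6% for T and NK markers, 10% for myeloid and 10% for fibroblast and epithelial markers. The share was 16.7% for erythroid and megakaryocyte markers and 23.4% for all genes. Some markers of other types were bright: the granule gene NKG7 read 6.06 and 6.22 in MT1 against 9.09 and 9.05 in TK6 (-2.93 ± 0.12, adjusted p = 5.82e-19), the keratin KRT8 9.73 and 9.54 in MT1 against 9.98 and 9.70 in TK6 and the scavenger receptor CD163 7.91 and 8.00 in MT1 against 7.91 and 8.04 in TK6. The T-cell receptor chain CD3E read 5.75 and 5.40 in MT1 against 5.53 and 5.57 in TK6 and the myeloid receptor CD14 5.49 and 5.71 in MT1 against 5.59 and 5.68 in TK6. Whether other cell types had a part in any difference was not tested. In a bulk sample fewer cells that carry a transcript and less of it per cell cannot be told apart.

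Antigen presentation was partly higher in MT1. Of 17 HLA class II genes 8 were higher and 0 lower (median 0.07), 47.1% against 23.4% of all genes. HLA-DMB had levels of 9.19 and 8.96 in MT1 against 6.93 and 6.74 in TK6 (2.24 ± 0.084, adjusted p = 8.81e-20) and its partner HLA-DMA had levels of 9.14 and 9.05 in MT1 against 8.01 and 8.08 in TK6 (1.05 ± 0.081, adjusted p = 6.31e-12); the pair exchanges peptides on class II molecules. Both lines lay below every panel line for these 2 genes, with MT1 the nearer. RFXAP, a subunit of the class II promoter complex, was higher (0.92 ± 0.20), the class II chain HLA-DRA read 12.69 and 12.70 in MT1 against 12.67 and 12.64 in TK6 (0.04 ± 0.055, adjusted p = 0.719) and the class II transactivator CIITA 6.15 and 6.11 in MT1 against 6.14 and 6.17 in TK6 (-0.03 ± 0.13, adjusted p = 0.949), and neither of the last 2 was called. The number higher was 4 without normalisation, 4 with arrays centred on their medians and 3 with the 4 arrays alone. Of 17 class I genes 4 were higher and 3 lower, 41.2% in all. The peptide transporter subunits TAP2 (1.22 ± 0.12) and TAP1 (0.80 ± 0.089) were the most in excess. The class I light chain B2M differed by 0.13 ± 0.046 (adjusted p = 0.0373), a call that 12 alternatives did not keep; the mean of its probe sets differed by -0.0078.

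Interferon-stimulated genes differed in both directions and were low in both lines relative to the panel. Of 38 tested, 11 were higher and 7 lower (median 0.04), and only 1 to 4 were higher with the 4 arrays alone, with arrays centred on their medians or without normalisation. MT1 lay below the panel at 20 of them and TK6 at 22. The largest differences were deficits, in the guanylate-binding protein GBP2 (-2.52 ± 0.10), the antiviral GTPase MX2 (-1.87 ± 0.10) and the ubiquitin ligase DTX3L (-1.68 ± 0.20). Chemokines, cytokines and their receptors were likewise mixed, with 9 higher and 12 lower of 34. The called share was 47.4% for the interferon list and 61.8% for this one, against 23.4% of all genes. The homing receptor CXCR4 had levels of 8.15 and 8.25 in MT1 against 10.55 and 10.60 in TK6 (-2.38 ± 0.087, adjusted p = 6.05e-20), and CCR7, which brings lymphocytes into lymph nodes, had levels of 10.61 and 10.73 in MT1 against 11.75 and 11.98 in TK6 (-1.19 ± 0.10, adjusted p = 1.11e-10). Both receptors were clearly dimmer in the derivative, whereas the interferon-induced ligand CXCL10 was among the largest excesses. Of 28 NF-kB subunits and targets 6 were higher, led by the cytokine chain EBI3 (1.28 ± 0.16), and 8 lower, led by lymphotoxin LTA (-1.01 ± 0.26); the call of LTA was lost without MT1 replicate 1 (adjusted p = 0.0657) or TK6 replicate 2 (adjusted p = 0.0849), with a pseudocount of 64 and with arrays centred on their medians. Of 34 adhesion and migration genes 6 were higher, among them CD44, and 9 lower. The lower ones included the lymphocyte receptor SLAMF6 (-2.62 ± 0.10) and the migration inhibitor P2RY8 (-1.75 ± 0.12). The called share was 50% for the NF-kB list and 44.1% for adhesion and migration.

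Genes of glycolysis and the hypoxia response formed one of the most one-sided lists. In cells the factor HIF-1, a dimer with HIF1A as its oxygen-regulated subunit, switches on glucose transporters, most glycolytic enzymes and the mitochondrial receptors BNIP3 and BNIP3L when oxygen is short. Of 36 tested genes 26 were lower and 2 higher in MT1 (median -0.63), and 12 of the lower ones differed at least 2-fold. The called share was 77.8%, against 23.4% of all genes. Measured from the panel's medians, the list's median was -0.33 in MT1 and 0.30 in TK6. TK6 lay above every panel line at 15 of the genes and MT1 below every panel line at 13. Over all 13818 genes tested those counts were 2273 and 2269. In this list the lines thus departed mostly on opposite sides. With arrays centred on their medians 16 were called lower.

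BNIP3, which marks mitochondria for removal, had levels of 8.11 and 7.97 in MT1 against 11.16 and 10.99 in TK6 (-3.03 ± 0.12, adjusted p = 2.63e-19), and its relative BNIP3L had levels of 7.67 and 8.15 in MT1 against 10.44 and 10.91 in TK6 (-2.76 ± 0.26, adjusted p = 7.29e-10). PFKFB4, which makes the activator of phosphofructokinase, had levels of 6.62 and 6.92 in MT1 against 9.65 and 9.63 in TK6 (-2.88 ± 0.11, adjusted p = 3.83e-19). In each case the MT1 arrays were near or below the panel's lower end and the mean of TK6 was above its upper end. ANKRD37, a small target of HIF-1, had levels of 6.64 and 6.50 in MT1 against 9.55 and 9.25 in TK6 (-2.83 ± 0.12, adjusted p = 1.02e-18), and PDK1, the kinase that shuts pyruvate out of mitochondria, had levels of 7.43 and 7.66 in MT1 against 9.76 and 9.86 in TK6 (-2.27 ± 0.098, adjusted p = 3.39e-18). The transcript of HIF1A itself read 7.82 and 7.64 in MT1 against 9.88 and 9.77 in TK6 (-2.10 ± 0.13, adjusted p = 3.08e-14), and TK6 was just below and MT1 well below the panel's 9.84 to 10.63. Abundant enzymes differed by less: the phosphoglycerate kinase PGK1 by -0.93 ± 0.071, the enolase ENO1 by -0.76 ± 0.045, the lactate dehydrogenase LDHA by -0.58 ± 0.032 and GAPDH by -0.18 ± 0.052. The 2 higher genes were the muscle-type phosphofructokinase PFKM (0.38 ± 0.076, adjusted p = 0.00023) and the heart-type lactate dehydrogenase LDHB (0.17 ± 0.060, adjusted p = 0.0348). With arrays centred on their medians the calls of LDHA, GAPDH, PFKM and LDHB were lost; that of GAPDH was also lost without MT1 replicate 2 (adjusted p = 0.062), and that of LDHB without MT1 replicate 1 (adjusted p = 0.353) or TK6 replicate 2 (adjusted p = 0.433). GAPDH, PFKM and LDHB were not called without normalisation or with the 4 arrays alone, LDHB not without a filter or a trend, and GAPDH not with the probe set chosen on the 4 arrays (-0.08).

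**Figure D3:**
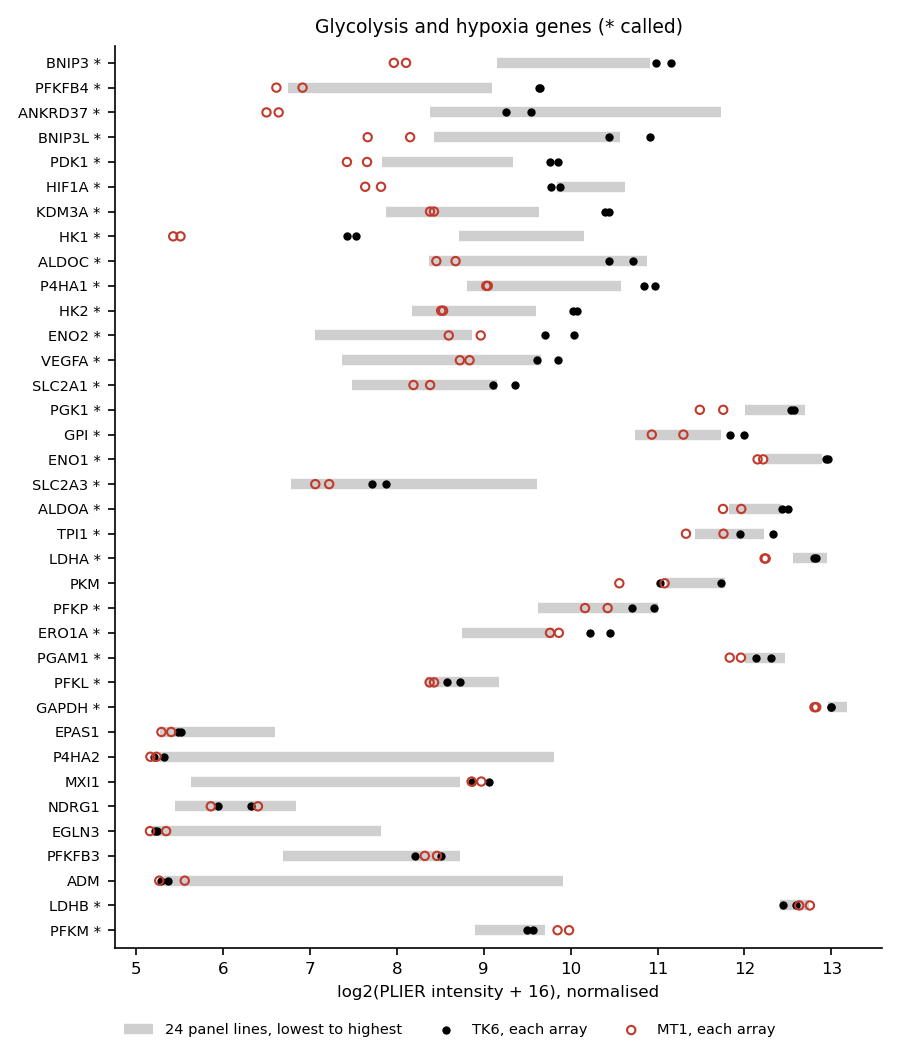
Levels of the 36 tested glycolysis and hypoxia genes in each array, as log2 of the normalised PLIER intensity plus 16, from the lowest to the highest difference between the lines. Open red circles are the 2 MT1 arrays, black points the 2 TK6 arrays and grey bars the range of the 24 panel lines; stars mark the called genes, 26 of them lower and 2 higher in MT1.

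Promoters of the 3 genes with the largest deficits in the list are shown because members of the list were lower together; the sequences are the 250 bases before the gene start, from RefSeq on GRCh38.p14, printed 5′ to 3′ on the gene's strand, with capitals for the core of the hypoxia response element (ACGTG or GCGTG, either strand, overlaps counted). They are BNIP3 (chr10:131981924-131982173, minus strand), PFKFB4 (chr3:48556804-48557053, minus strand) and ANKRD37 (chr4:185396591-185396840, plus strand).
BNIP3: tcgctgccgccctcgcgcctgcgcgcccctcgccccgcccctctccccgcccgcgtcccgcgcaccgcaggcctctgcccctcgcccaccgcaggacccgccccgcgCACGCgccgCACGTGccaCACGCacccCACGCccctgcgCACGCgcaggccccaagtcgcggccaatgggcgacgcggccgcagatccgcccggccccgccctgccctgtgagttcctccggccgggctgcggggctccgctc
PFKFB4: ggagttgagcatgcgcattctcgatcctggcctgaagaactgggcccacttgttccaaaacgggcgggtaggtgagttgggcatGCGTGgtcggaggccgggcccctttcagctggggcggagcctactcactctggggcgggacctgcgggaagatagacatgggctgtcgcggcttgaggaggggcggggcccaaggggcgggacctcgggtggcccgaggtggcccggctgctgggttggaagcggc
ANKRD37: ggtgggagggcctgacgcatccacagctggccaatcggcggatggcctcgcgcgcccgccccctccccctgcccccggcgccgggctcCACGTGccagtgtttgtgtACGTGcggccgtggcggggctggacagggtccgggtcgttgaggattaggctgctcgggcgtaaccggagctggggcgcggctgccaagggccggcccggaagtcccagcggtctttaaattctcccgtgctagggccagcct
BNIP3 held 6 matches between 143 and 104 bases before its start, ANKRD37 held 3, and PFKFB4 held 1. A palindrome such as CACGTG counts on both strands. Of the 23 lower genes of the list found in the promoter table, 17 (73.9%) had a match. Of the 32 tested genes of the list found there, whatever their call, 20 (62.5%) did. Of 27195 promoters of the same length 43.1% did. Whether a match goes with a lower level in MT1 was not tested. A match describes the letters and not a bound site, and promoters differ in base composition, which was not matched.

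Genes of the amino acid response were lower in MT1 without exception among the calls. The factor ATF4 raises amino acid synthesis, uptake and aminoacyl-tRNA synthetases when amino acids run short or proteins misfold. Of 29 tested genes 21 were lower and 0 higher (median -0.62), and 28 differences were below 0. The called share was 72.4%, against 23.4% of all genes. Here TK6 was the line that stood apart: it lay above every panel line at 22 genes and MT1 at 8, and the list's median relative to the panel's medians was 1.07 in TK6 and 0.26 in MT1. MT1 thus lay nearer to the other lymphoblastoid lines than its parent did.

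The lipoprotein receptor VLDLR had levels of 5.32 and 5.31 in MT1 against 7.95 and 7.90 in TK6 (-2.61 ± 0.13, adjusted p = 1.52e-16) and the secreted glycoprotein STC2 had levels of 7.38 and 7.25 in MT1 against 9.38 and 9.32 in TK6 (-2.04 ± 0.12, adjusted p = 1.2e-14). DDIT3, the stress factor CHOP, had levels of 7.21 and 7.20 in MT1 against 9.00 and 8.59 in TK6 (-1.59 ± 0.13, adjusted p = 1.29e-11), and the asparagine synthetase ASNS had levels of 10.01 and 9.92 in MT1 against 11.41 and 11.27 in TK6 (-1.38 ± 0.071, adjusted p = 3.17e-16). TK6 exceeded the panel for all 4 of these genes, and MT1 did so for DDIT3. The alanyl-tRNA synthetase AARS1 (-1.50 ± 0.11, adjusted p = 1.53e-12) and the TOR inhibitor DDIT4 (-1.41 ± 0.065) were lower as well. ATF4 itself and PHGDH, the first enzyme of serine synthesis, were among the lower genes: ATF4 read 11.51 and 11.23 in MT1 against 12.25 and 12.04 in TK6 (-0.77 ± 0.13, adjusted p = 2.44e-05) and PHGDH 9.79 and 9.63 in MT1 against 10.89 and 10.93 in TK6 (-1.20 ± 0.12, adjusted p = 1.25e-09). AARS1 lies in a stretch of neighbouring genes that was lower as a whole, described below.

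Promoters of AARS1 (chr16:70289507-70289756, minus strand) and ASNS (chr7:97872409-97872658, minus strand) are shown because they alone among the 20 lower genes found in the table held the amino acid response element core (TGATGNAA, either strand, in capitals); the source and window are those given for BNIP3.
AARS1: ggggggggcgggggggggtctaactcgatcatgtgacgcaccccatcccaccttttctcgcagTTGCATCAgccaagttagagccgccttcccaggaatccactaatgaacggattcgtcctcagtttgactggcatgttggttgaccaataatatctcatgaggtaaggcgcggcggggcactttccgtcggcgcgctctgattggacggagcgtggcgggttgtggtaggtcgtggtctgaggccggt
ASNS: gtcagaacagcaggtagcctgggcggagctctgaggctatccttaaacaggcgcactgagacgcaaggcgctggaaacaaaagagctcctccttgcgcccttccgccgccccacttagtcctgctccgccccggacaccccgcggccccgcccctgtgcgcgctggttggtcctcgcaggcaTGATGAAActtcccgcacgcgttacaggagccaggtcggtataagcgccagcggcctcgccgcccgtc
The match began 187 bases before the start of AARS1 and 68 bases before that of ASNS. Of 27195 promoters 3.18% held 1, and of the 24 tested genes of the list found there, whatever their call, 3 (12.5%) did. A sterol regulatory element (TCACNCCAC, either strand) was found in 0 promoters of the 12 higher genes of cholesterol and fatty acid synthesis. Of the 20 tested genes of that list found there, whatever their call, 1 (5%) held it, against 0.879% of all promoters. With so rare an element, 12 promoters are too few for the 0 to be read. Other spellings and other windows were not searched.

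Cholesterol and fatty acid synthesis showed the opposite direction. Of 22 tested genes 12 were higher and 1 lower in MT1 (median 0.54), and 21 differences were above 0. The called share was 59.1%, against 23.4% of all genes. MT1 lay above every panel line at 16 genes and TK6 at 4. HMGCS1, which makes the precursor of mevalonate, had levels of 11.42 and 11.17 in MT1 against 9.91 and 9.91 in TK6 (1.38 ± 0.12, adjusted p = 2.19e-10), and the isomerase IDI1 had levels of 11.71 and 11.42 in MT1 against 10.36 and 10.30 in TK6 (1.23 ± 0.11, adjusted p = 4.08e-10). Both steps lie early in the pathway, and late steps were higher as well. DHCR7, the last enzyme of cholesterol synthesis, had levels of 9.96 and 10.09 in MT1 against 8.71 and 8.97 in TK6 (1.19 ± 0.23, adjusted p = 0.000136), and the desaturase SC5D just before it had levels of 9.93 and 9.76 in MT1 against 8.79 and 8.61 in TK6 (1.14 ± 0.10, adjusted p = 1.43e-10). The methylsterol oxidase MSMO1 was also higher (0.83 ± 0.11, adjusted p = 6.93e-07), and the kinase PMVK was the lower gene (-0.32 ± 0.087, adjusted p = 0.00504). The sterol sensor's factor SREBF2 read 9.16 and 9.51 in MT1 against 8.64 and 8.97 in TK6 and was not called (0.53 ± 0.27, adjusted p = 0.179). With the 4 arrays alone 7 genes were called higher, and PMVK was called neither there nor without TK6 replicate 1 (adjusted p = 0.0649), without normalisation or with arrays centred on their medians.

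**Figure D4:**
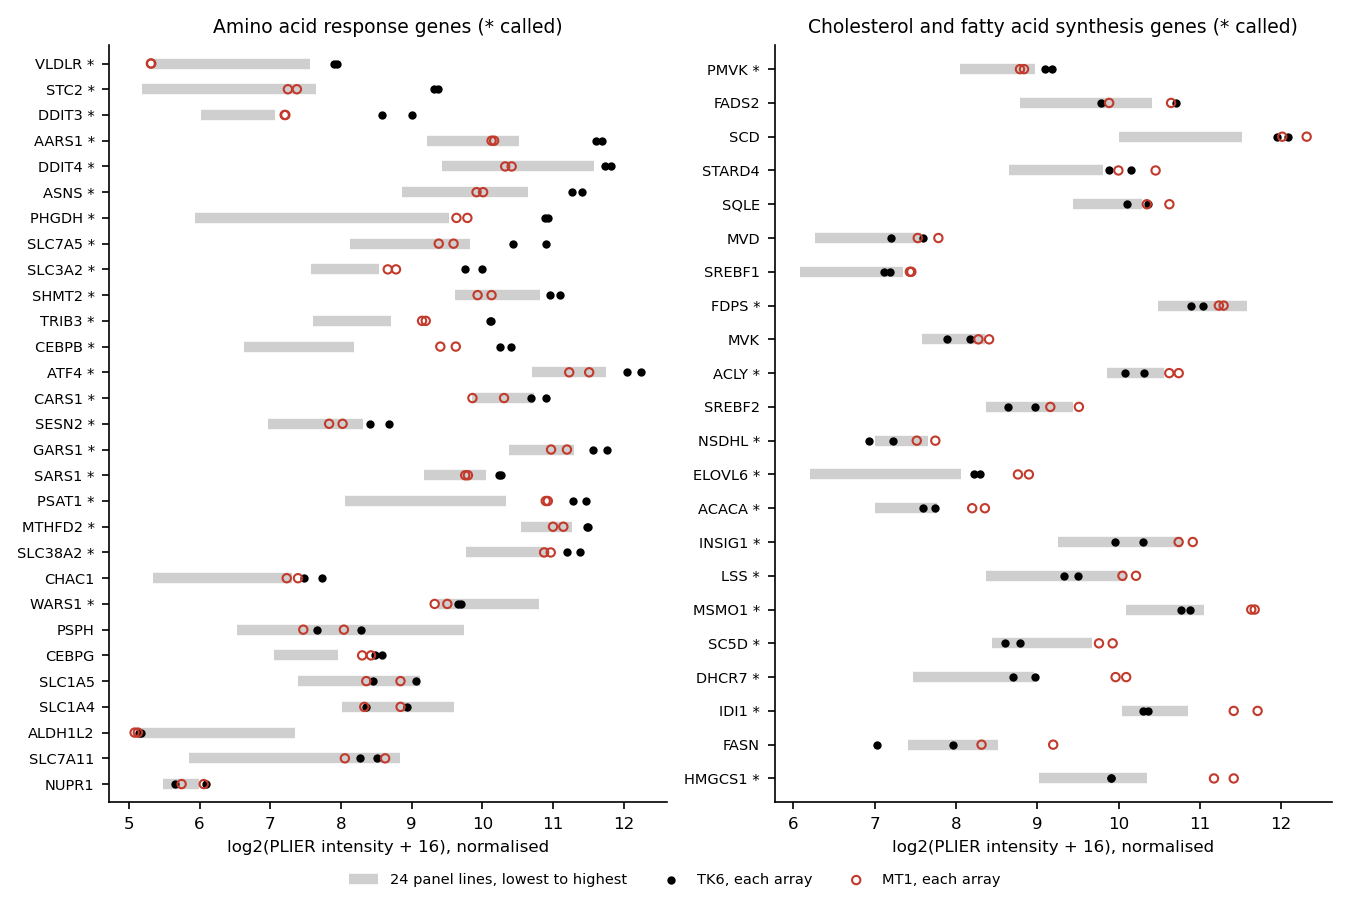
Levels of the tested amino acid response genes (left) and cholesterol and fatty acid synthesis genes (right) in each array, as log2 of the normalised PLIER intensity plus 16, ordered by the difference between the lines. Open red circles are the 2 MT1 arrays, black points the 2 TK6 arrays and grey bars the range of the 24 panel lines; TK6 lies above the panel at 22 of 29 genes on the left, and MT1 at 16 of 22 on the right.

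DNA repair genes differed by modest amounts. MSH6, the mutated recognition subunit of MT1, read 9.34 and 9.37 in MT1 against 9.41 and 9.54 in TK6 (-0.12 ± 0.080, adjusted p = 0.32), and its alternative partner MSH3 read 10.33 and 10.66 in MT1 against 10.06 and 10.88 in TK6 (0.02 ± 0.19, adjusted p = 0.968). Neither was called, and a transcript level says nothing of whether the protein works. Of 20 mismatch repair genes 3 were higher and 3 lower (median 0.06), a total of 30% against 23.4% of all genes. The MutL-family gene PMS1 had levels of 9.33 and 9.08 in MT1 against 8.62 and 8.32 in TK6 (0.74 ± 0.12, adjusted p = 1.72e-05), and RFC1, the large subunit of the clamp loader, had levels of 7.32 and 7.35 in MT1 against 8.49 and 8.36 in TK6 (-1.10 ± 0.12, adjusted p = 1.47e-08). RFC1 kept its call under all 17 alternatives. The exonuclease EXO1 (0.35 ± 0.10) and the clamp PCNA (0.36 ± 0.12) were higher by small amounts, and RFC3 (-0.42 ± 0.092) and RPA3 (-0.30 ± 0.080) were lower. The calls of EXO1 and PCNA were lost without MT1 replicate 1 (adjusted p = 0.0566 and 0.121) or TK6 replicate 2 (adjusted p = 0.333 and 0.266). Those of PCNA and RPA3 were lost without MT1 replicate 2 (adjusted p = 0.0735 and 0.051), and that of RPA3 without TK6 replicate 1 (adjusted p = 0.0708). Another, dimmer probe set of RFC3 differed by 0.44, and with the mean of its probe sets RFC3 was not called (-0.13, adjusted p = 0.323). EXO1 and PCNA were not called without normalisation. With the 4 arrays alone PMS1, EXO1, PCNA, RFC3 and RPA3 were not called, and all of these but PMS1 were not called with arrays centred on their medians.

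MGMT, which takes the methyl group off guanine, was at the end of the scale in every array of both lines, at 5.17 and 5.28 in MT1 against 5.18 and 5.16 in TK6 (0.06 ± 0.12, adjusted p = 0.846), where panel lines reached 8.47. The alkyladenine glycosylase MPG read 7.45 and 7.86 in MT1 against 7.97 and 8.19 in TK6 (-0.43 ± 0.25, adjusted p = 0.264) and was not called. Of 18 genes of alkylation damage repair 5 were higher, including the flap nuclease FEN1 (0.67 ± 0.057), the gap-filling polymerase POLB (0.38 ± 0.088) and the dioxygenase ALKBH2 (0.37 ± 0.10), and 2 were lower, the RNA demethylase ALKBH5 (-0.83 ± 0.15) and ASCC1 (-0.67 ± 0.079). Only 1 was called higher without normalisation, with arrays centred on their medians or with the 4 arrays alone; the calls of POLB and ALKBH2 were also lost without TK6 replicate 2 (adjusted p = 0.0668 and 0.163), that of ALKBH2 without MT1 replicate 2 (adjusted p = 0.0684), and that of ALKBH5 with arrays centred on their medians. Among other glycosylases the uracil glycosylase UNG had levels of 7.63 and 7.79 in MT1 against 6.81 and 6.91 in TK6 (0.85 ± 0.090, adjusted p = 7.27e-09) and MUTYH, which removes adenine opposite oxidised guanine, had levels of 7.86 and 7.97 in MT1 against 8.64 and 8.90 in TK6 (-0.85 ± 0.13, adjusted p = 4.7e-06). These 2 enzymes thus differed by similar amounts in opposite directions, and MUTYH in TK6 was above the panel. Nucleotide excision repair had 4 higher and 3 lower of 19 genes, and homologous recombination and the Fanconi pathway 4 and 2 of 28. End joining had 3 and 0 of 12, translesion synthesis 2 and 1 of 10, and the damage checkpoint 4 and 1 of 17. In that order the called shares were 36.8%, 21.4%, 25%, 30% and 29.4%. The share was 38.9% for alkylation damage repair and 23.4% for all genes.

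Damage targets were lower in part. Of 37 genes of the p53 pathway and damage response 12 were lower and 5 higher (median -0.14), 45.9% against 23.4% of all genes. With arrays centred on their medians 0 were higher. Beside GDF15, the growth-arrest genes GADD45B, at 8.23 and 8.08 in MT1 against 9.38 and 9.14 in TK6 (-1.10 ± 0.14, adjusted p = 1.42e-07), and GADD45A, at 8.65 and 8.64 in MT1 against 9.76 and 9.67 in TK6 (-1.07 ± 0.11, adjusted p = 7.82e-09), were at least 2-fold lower. The cyclin-like CCNG2 (-0.87 ± 0.17), the p53-induced reductase TP53I3 (-0.81 ± 0.15) and the cyclin-dependent kinase inhibitor CDKN1A (-0.52 ± 0.079) were lower by less. MDM2, the ubiquitin ligase that p53 induces, read 9.12 and 9.48 in MT1 against 9.17 and 9.42 in TK6 and was not called (-0.0018 ± 0.16, adjusted p = 0.996). In the BCL2 family and apoptosis list 6 of 31 genes were higher and 2 lower, a share of 25.8% that lay near the 23.4% of all genes, and 0 were called with arrays centred on their medians. The survival genes BCL2 (0.52 ± 0.081, adjusted p = 7.46e-06) and BCL2L1 (0.48 ± 0.14) and the death receptor FAS (0.49 ± 0.12) were higher; 3 further probe sets of BCL2, all dimmer, differed by 0.07, -0.26 and -0.37, and their mean with the first gave -0.012. With arrays centred on their medians CDKN1A, BCL2, BCL2L1 and FAS were not called. FAS was not called without TK6 replicate 2 either (adjusted p = 0.118), nor BCL2L1 without MT1 replicate 2 (adjusted p = 0.165) or TK6 replicate 1 (adjusted p = 0.206). FAS and BCL2L1 were not called without normalisation or with the 4 arrays alone, BCL2L1 not with the mean of its probe sets, and TP53I3 not without normalisation. The thymidine kinase TK1 (-0.17 ± 0.13, adjusted p = 0.406) and the purine salvage gene HPRT1 (0.04 ± 0.056, adjusted p = 0.749), whose loss is scored in mutation assays with TK6, were not called.

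In 4 lists of growth and protein folding, grouped here by their direction, most called members were higher in MT1. Related lists did not share this direction. Unfolded protein response genes were lower at 8 and higher at 4 of 22, and cytosolic ribosomal proteins at 1 and 1 of 45. Of 18 heat shock chaperones 11 were higher and 2 lower (median 0.32), of 30 ribosome biogenesis genes 12 were higher and 0 lower (median 0.23), of 21 histone genes 9 were higher and 0 lower (median 0.23), and of 33 oxidative phosphorylation genes 11 were higher and 1 lower (median 0.18). The called shares were 72.2%, 40%, 42.9% and 36.4%, against 23.4% of all genes. In the last 3 lists 18, 12 and 21 members did not pass the test. These counts depended on the scaling: with arrays centred on their medians the numbers higher were 4, 6, 7 and 1, and with the 4 arrays alone 8, 5, 3 and 3, while each list's median kept its sign under every alternative. The mitochondrial chaperonin HSPE1 had levels of 11.47 and 11.50 in MT1 against 10.59 and 10.67 in TK6 (0.86 ± 0.095, adjusted p = 1.76e-08), and the cochaperones DNAJA1 (0.79 ± 0.096) and HSPH1 (0.78 ± 0.11) were higher with it. The small heat shock protein HSPB1 was lower, but its MT1 duplicates read 8.15 and 5.91 against 8.96 and 9.00 in TK6 (-1.95 ± 0.33, adjusted p = 2.4e-05), and its difference was -3.07 without MT1 replicate 1 and -0.83 without MT1 replicate 2. The nucleolar regulator LYAR (0.98 ± 0.12), the ATP synthase subunit ATP5MC1 (0.77 ± 0.085) and the histones H2AC6 (1.86 ± 0.17) and H2BC9 (1.71 ± 0.18) led their lists. With the 4 arrays alone HSPB1 and H2BC9 were not called.

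Cell cycle genes were close to the background of all genes. Of 49 genes of the G1/S phase and replication 10 were higher and 4 lower (28.6%). Of 42 genes of G2 and mitosis 6 were higher and 4 lower (23.8%), against 23.4% of all genes. The hemimethyl-CpG reader UHRF1 had levels of 8.81 and 8.99 in MT1 against 7.53 and 7.38 in TK6 (1.45 ± 0.11, adjusted p = 1.54e-12), the cyclin-dependent kinase inhibitor CDKN2A had levels of 5.36 and 5.38 in MT1 against 7.30 and 7.21 in TK6 (-1.89 ± 0.099, adjusted p = 4.37e-16) and the licensing factor CDT1 had levels of 7.45 and 7.71 in MT1 against 8.65 and 8.59 in TK6 (-1.04 ± 0.097, adjusted p = 4.53e-10). UHRF1 was dim in TK6 relative to the panel, and CDKN2A was near the end of the scale in MT1 only. The call of CDT1 was lost when the probe set was chosen on the 4 arrays. Cytosolic ribosomal proteins had 1 higher and 1 lower of 45 (4.44%, median -0.01).

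**Figure D5:**
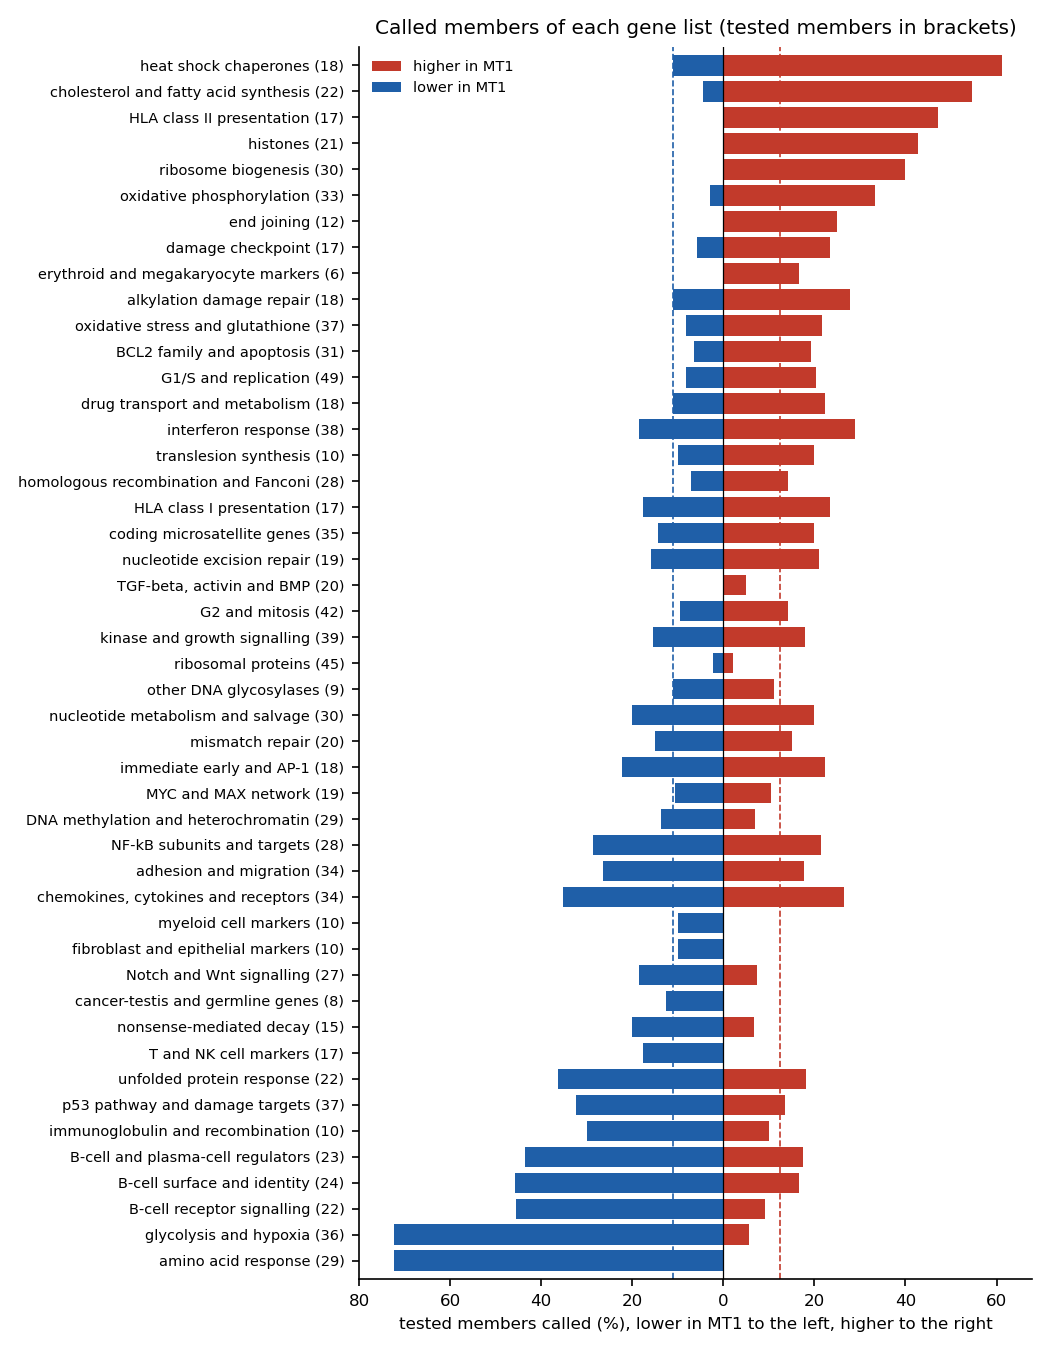
Share of the tested members of each of 47 gene lists that were called lower (blue, to the left) or higher (red, to the right) in MT1, in percent, with the number tested in brackets. Dashed lines mark the shares over all genes, 11.0% lower and 12.4% higher; amino acid response and glycolysis and hypoxia reach farthest to the left and heat shock chaperones and cholesterol and fatty acid synthesis farthest to the right.

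Some called genes lay next to each other on chromosomes. With 13789 tested genes placed in the order of the RefSeq gene table, 117 runs of at least 5 neighbours had the same sign and at least 3 calls. Of these 59 were lower and 58 higher, and they held 422 of the 3228 called genes. How many such runs a random order of the genes would give was not tested. Over all genes tested 11.0% were called lower and 12.4% higher. In windows of 31 neighbours the median difference ran from -0.50 to 0.37, and its quantiles 0.01 and 0.99 were -0.21 and 0.20. On the 2 chromosomes with the lowest windows, the lowest window was extended over adjacent windows below -0.25, a limit set after the values were seen. Other windows of these chromosomes were not searched. Each of the 2 stretches so formed holds the middle genes of its windows, which themselves reach farther on both sides. The first held zinc-finger genes from ZNF101 to ZNF276-AS1: of 27 tested genes 14 were lower and 0 higher (median -0.50), with ZNF430 at 5.10 and 5.41 in MT1 against 7.54 and 7.70 in TK6 (-2.36 ± 0.10, adjusted p = 5.99e-18) and ZNF91 at 5.24 and 5.55 in MT1 against 6.37 and 6.98 in TK6 (-1.28 ± 0.26, adjusted p = 0.000244). MT1 stood farther from the panel there, with a median of -0.86 against the panel's medians where TK6 had -0.14. MT1 lay below every panel line at 18 of the 27 genes. TK6 lay below every panel line at 11 and above every one at 2. Runs between zinc-finger genes outside this stretch were lower as well. Their medians went from -0.36 (ZNF83 to ZNF160) to -0.88 (ZNF736 to ZNF117). No higher run began and ended at zinc-finger genes. Transcripts of this zinc-finger family are similar to one another, and how far their probes tell them apart was not tested. ZNF91 was not called with the 4 arrays alone.

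The second stretch, with ends set by the limit given above, ran from NFAT5 to NPIPB15 and held unrelated genes. Of 32 tested 16 were lower, against 11.0% of all genes, and 0 higher (median -0.42), and 27 differences were below 0. Here TK6 was the line above the panel, at 15 genes, with a median of 0.29 against the panel's medians where MT1 had -0.02. Besides AARS1 it held the quinone reductase NQO1, at 9.79 and 10.21 in MT1 against 10.70 and 11.02 in TK6 (-0.86 ± 0.16, adjusted p = 7.7e-05), the ribosome assembly nuclease NOB1 (-0.85 ± 0.15), the splicing factor SF3B3 (-0.68 ± 0.15) and the pyrimidine synthesis enzyme DHODH (-0.40 ± 0.12). A second, dimmer probe set of SF3B3 differed by 0.21. NOB1 and SF3B3 were not called with arrays centred on their medians, NQO1 with the 4 arrays alone, and DHODH without MT1 replicate 1 or TK6 replicate 1 (adjusted p = 0.0789 and 0.0788), without normalisation or with the 4 arrays alone. SF3B3 was not called with the mean of its probe sets (-0.24). Lower runs crossed both ends of the stretch. COG8 to AARS1 had 5 calls among 11 genes (median -0.45), and NPIPB15 to TERF2IP had 6 among 17 (median -0.23). Genes named in other lists lay in runs as well. IRF8 (ZDHHC7 to LINC01082) and HERPUD1 (HERPUD1 to RSPRY1) were in lower runs, and SYK and ATR in higher ones. Whether any of these runs belongs with the stretch was not tested. In the highest window, from CLDN18 to PLSCR1, 12 of 31 genes were higher, against 12.4% of all genes, and 0 lower (median 0.37).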

How the data were processed

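Biotin-labelled cRNA of total RNA was hybridised to expression arrays. The authors deposited linear intensities that were computed with PLIER, as named in the submitters' processing notes (PLIER's version: not given in the sources used here). They run from a floor of 16 to 65535, so differences of genes near the floor are lower bounds.

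Of 54675 probe sets, 41097 had a single gene symbol in the platform annotation, 1801 several and 11777 none; the last 2 kinds were left out. Log2 of the value plus 16 was quantile normalised over the 52 untreated arrays, which understates changes of dim genes. Each of 19740 genes was represented by its brightest probe set, and 13818 remained after the dimmest 30% were dropped. limma 3.58.1 (R 4.3.3) fitted a mean per line with a trended prior and 26 residual degrees of freedom; MT1 minus TK6 was tested two-sided with Benjamini-Hochberg adjustment. The analysis was tested on simulated data. The number of arrays limits the precision. Figures used matplotlib 3.10.9.

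The comparison and 47 gene lists were chosen with earlier results of these data known, so lists are described by counts and medians and not tested. Named genes are the 15 largest excesses and deficits among called genes with no overlap, up to 5 called genes per list with the largest difference, a fixed set of repair, selection and lineage genes, and genes of neighbour runs. HBB, GATA1, ALAS2, CD22, CD79A, CD79B, CD86, CD40, CD200, BLNK, SYK, MYB, IKZF3, PAX5, IRF4, CD3E, CD14, KRT8, CD163, CIITA, CCR7, HIF1A, PGK1, ENO1, GAPDH, PFKM, LDHB, ASNS, ATF4, PHGDH, PMVK, SREBF2, RPA3 and GCLM were named after their values were seen. Some genes are not reported here. Alternatives were pseudocounts of 1 and 64, no normalisation, median-centring, no filter, a filter of 50%, averaging a gene's probe sets, probe set and filter from the 4 arrays, no trend, the 4 arrays alone, array weights, a replicate block and leaving out each array.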

Additional observations from a re-analysis of the deposited data

How the results depend on the processing

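The 3228 calls (1711 higher and 1517 lower) became 1437 (666 and 771) on values without normalisation, 1915 (843 and 1072) with arrays centred on their medians and 1363 (604 and 759) with the 4 arrays fitted alone. Of the calls tested there too, 44.4%, 58.3% and 41.7% were called in the same direction. Leaving out 1 array at a time gave 2468 to 2668 calls, 1195 to 1437 higher and 1231 to 1337 lower; the lone array was assumed to vary like the other lines. The 535 calls of at least 2-fold became 338 with a pseudocount of 64 and 353 with the mean of all probe sets, and 543 to 585 without 1 array. Under the other alternatives run, the 4 counts moved by less than 1.5 times. Of the 145 called genes with a value in the text, 39 lost the call in at least 1 of 17 alternatives and 2 reversed, B2M (-0.0078) and BCL2 (-0.012), both with the mean of all probe sets. Duplicates carry the numbers 1 and 2 in both lines, and same-numbered deviations of MT1 and TK6 correlated at 0.389 over genes. There are only 2 pairs and no label pairs them. Whether same-numbered arrays share more than a number was not tested. With a replicate block the calls were 3706 over 52 arrays and 4213 with the 4 arrays alone. Signal near the floor limits dim genes: 3157 tested genes had levels under 6 in both lines.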

Other observations

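Genes of protein folding in the endoplasmic reticulum differed in both directions. Of 22 unfolded protein response genes 8 were lower and 4 higher in MT1 (median -0.10), 54.5% against 23.4% of all genes. HERPUD1, which helps clear misfolded proteins, had levels of 9.26 and 9.05 in MT1 against 10.70 and 10.45 in TK6 (-1.42 ± 0.17, adjusted p = 1.15e-07), and the stress sensor ERN1 had levels of 7.16 and 6.99 in MT1 against 8.25 and 7.93 in TK6 (-1.02 ± 0.15, adjusted p = 4.43e-06). Neither gene overlapped between the lines, which held for 52.7% of all genes too. The number lower was 4 with arrays centred on their medians. Of 37 oxidative stress and glutathione genes 8 were higher and 3 lower, 29.7% and near the share of all genes; with arrays centred on their medians 2 were higher. The largest difference was in GCLC, the catalytic subunit that limits glutathione synthesis, at 5.83 and 5.99 in MT1 against 7.42 and 7.57 in TK6 (-1.59 ± 0.13, adjusted p = 5.4e-11). Its modifier subunit GCLM was higher (0.44 ± 0.099), but GCLM was not called without normalisation, with arrays centred on their medians, with the 4 arrays alone or without MT1 replicate 2 (adjusted p = 0.0819). Of 18 drug transport and metabolism genes 4 were higher, among them the efflux pump ABCC4 (1.00 ± 0.14), and 2 lower, the reductase AKR1C1 (-1.03 ± 0.22) and the sulfotransferase SULT1A1 (-0.95 ± 0.19), 33.3% in all. AKR1C1 was not called without normalisation or with the 4 arrays alone, and the mean of its probe sets differed by -0.31. In growth signalling 7 of 39 genes were higher and 6 lower, 33.3% in all. The insulin receptor substrate IRS2 had levels of 6.29 and 6.27 in MT1 against 9.52 and 9.41 in TK6 (-3.18 ± 0.19, adjusted p = 1.37e-14). For IRS2, TK6 lay above the panel's 6.87.

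Repeat-bearing genes that often carry frameshifts in mismatch repair deficient tumours were called in both directions. Of 35 tested coding microsatellite genes 7 were higher and 5 lower (34.3% against 23.4% of all genes), and 0 were higher with the 4 arrays alone. The actin-binding substrate MARCKS had levels of 10.44 and 10.43 in MT1 against 11.34 and 11.29 in TK6 (-0.88 ± 0.13, adjusted p = 3.44e-06) and the checkpoint kinase ATR had levels of 9.24 and 9.08 in MT1 against 8.74 and 8.50 in TK6 (0.54 ± 0.15, adjusted p = 0.0069). The call of ATR was lost without normalisation, with arrays centred on their medians, with the mean of its probe sets (0.29), with the 4 arrays alone, and without MT1 replicate 1 (adjusted p = 0.0839) or TK6 replicate 2 (adjusted p = 0.12). Expression arrays do not read the repeats themselves. Of 15 nonsense-mediated decay genes 1 was higher and 3 lower (26.7% in all). Of 20 genes of TGF-beta, activin and BMP signalling 1 was higher and 0 lower (5% in all). Of 29 genes of DNA methylation and heterochromatin 2 were higher and 4 lower, with the maintenance methyltransferase DNMT1 at 9.73 and 9.56 in MT1 against 10.24 and 10.05 in TK6 (-0.50 ± 0.093, adjusted p = 0.000101) and its partner UHRF1 in the other direction; DNMT1 was not called with arrays centred on their medians or with the 4 arrays alone. The called share was 20.7% for DNA methylation and heterochromatin. Among the remaining lists, nucleotide metabolism had 6 higher and 6 lower of 30 (40%). The MYC and MAX network had 2 and 2 of 19 (21.1%), and immediate early genes 4 and 4 of 18 (44.4%). Notch and Wnt signalling had 2 and 5 of 27 (25.9%), and cancer-testis genes 0 and 1 of 8 (12.5%).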
